A study of Mus musculus with 6 samples.

Results

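The genes described here are 10 integrin subunits and adhesion molecules of T cells, *Itgal*, *Itga4*, *Itgav*, *Itgb1*, *Itgb2*, *Itgb7*, *Cd44*, *Selplg*, *Icam1*, and *Cd69*, chosen by name from 47643 genes in the count table. The choice was made with earlier results of these data known. All 10 were found, and all 10 had at least 10 reads over the 6 samples, the minimum for testing that 11877 genes met. They were measured in splenic CD4+ T cells positive for both colours of the reporter (*Nr4a3*-Blue+Red+), sorted from Tg4 *Nr4a3*-Tocky Tiger mice, which carry a T cell receptor transgene for a myelin basic protein (MBP) peptide, a Timer protein driven by *Nr4a3* that is blue when newly made and matures to red, and an *Il10*-GFP reporter. Every mouse had been immunized with 80 μg of peptide and, 24 h later, given 800 μg of isotype control antibody, anti-PD1, or anti-Lag3. A second dose of 8 μg of peptide followed after 30 min, and spleens were taken 4 h later. There were 3 groups of 2 samples. By the study's methods, cells of replicate mice were stained separately and sorted in parallel, and the age of the mice is not given in the sources used here. The sort kept cells with recent and earlier reporter activity in all groups, so the comparison was aimed at responding cells. Reads of markers of other cell types were also present, as given below. A further batch of 3 samples, which the study's methods describe as an outlier and as handled together in sorting and processing, was not used here. Whether the samples used here were handled in such batches by replicate number is not stated.

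Integrins are pairs of an α and a β chain that hold T cells to other cells and to matrix, and they work only as pairs. LFA-1, the pair of *Itgal* and *Itgb2*, binds ICAM-1, the product of *Icam1*, at the contact between a T cell and an antigen-presenting cell, while *Itga4* pairs with *Itgb1* to bind VCAM-1 and with *Itgb7* to bind MAdCAM-1 in the gut. T cell receptor signals act on integrins largely by changing their shape and clustering, and they induce CD69, a lectin-like receptor that retains activated T cells in lymphoid organs. mRNA levels therefore show 1 layer of this system, and surface protein and integrin activity were not measured here.

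None of the 10 genes passed the test between any of the treatments. The largest difference from isotype under anti-PD1 was in *Itga4*, which encodes the integrin α4 chain, at 0.566 times the isotype level, and it fell short of the threshold. *Itgav*, the αv chain, was lowest in both anti-Lag3 samples and highest in both anti-PD1 samples, which also did not pass. Among 112 other tested genes of adhesion, integrin activation, and selectin ligand synthesis, 5 differed between anti-PD1 and isotype (4.46%, beside 0.901% of all genes tested): *Slamf6*, *Cd226*, and *Fyb* fell, and *Gcnt1* and *Cd24a* rose. Of these, *Cd226* and *Cd24a* did not pass by DESeq2. The lists of further genes were drawn up with results of these data known, so the 4.46% is a description only.

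As these 2 integrin α chains had the largest differences among the 10 genes, the 250 bases before their start sites are shown 5′ to 3′ (RefSeq, GRCm38.p6). The *Itga4* stretch lies at chr2:79255176-79255425 and the *Itgav* stretch at chr2:83724147-83724396, both on the forward strand, and neither overlaps an annotated exon. Capitals mark every match, on either strand, to 6 motifs searched: the TATA box letters TATAAA, the GC box GGGCGG, the palindrome GGAANTTCC of the κB type, the AP-1 letters TGANTCA, the RUNX core TGTGGT, and the ETS core CAGGAAG.

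Itga4: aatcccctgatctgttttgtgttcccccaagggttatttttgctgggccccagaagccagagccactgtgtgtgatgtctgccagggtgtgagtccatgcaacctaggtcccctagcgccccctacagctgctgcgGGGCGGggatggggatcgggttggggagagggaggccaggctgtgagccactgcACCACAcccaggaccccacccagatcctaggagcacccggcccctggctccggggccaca

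Itgav: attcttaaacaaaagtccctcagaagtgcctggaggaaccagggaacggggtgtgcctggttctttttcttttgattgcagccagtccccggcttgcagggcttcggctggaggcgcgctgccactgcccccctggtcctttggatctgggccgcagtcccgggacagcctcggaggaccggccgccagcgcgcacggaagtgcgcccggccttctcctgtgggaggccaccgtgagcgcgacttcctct

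The *Itga4* stretch held GGGCGG beginning 114 bases before the start, and TGTGGT on the other strand 60 bases before it. The *Itgav* stretch held none of the 6 motifs. Of 32851 promoter stretches of this length, 32.7% held GGGCGG, 14.0% TGTGGT, 12.4% TATAAA, 10.8% CAGGAAG, 6.75% TGANTCA, and 0.813% GGAANTTCC. RefSeq promoters were matched for 6 of the 10 genes, and GGAANTTCC was found in 1 of them, *Icam1*, 153 bases before its start. Such a match is a description of the letters, since binding was not measured.

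Reads were counted at the 3′ end of transcripts, and levels are given as CPM (reads scaled to a common library size) after TMM scaling, in which each transcript gives about 1 tag whatever its length. Total counts were between 2107715 and 2648920 per sample, so that 3 counts stood for 1.11 to 1.44 CPM. The *Gm42418* locus, a site of ribosomal RNA reads, took 17.4% to 21.0% of the counts. The T cell markers (8 genes, among them *Cd3e* and *Cd4*) summed to 1949 to 2112 CPM in isotype, 1724 to 1907 in anti-PD1, and 1944 to 2086 in anti-Lag3, so that both anti-PD1 samples were below the other 4. The 2 CD8 T cell markers summed to 48.3 to 54.7, 29.8 to 34.5, and 32.7 to 33.7 CPM in that order, with isotype highest. The summed level of 9 B cell markers was 123 to 134 CPM in isotype, 54.8 to 68.0 in anti-PD1, and 83.5 to 123 in anti-Lag3, with *Cd79a* at 0 in all samples. The 10 macrophage or monocyte markers summed to 58.0 to 63.6 CPM in isotype, 20.1 to 33.9 in anti-PD1, and 33.3 to 39.4 in anti-Lag3. The 8 dendritic cell markers summed to 40.1 to 45.9, 13.4 to 17.6, and 16.0 to 37.1 CPM in that order, with *Zbtb46* and *Siglech* at 0. For these lists and for 4 neutrophil markers, both anti-PD1 samples were below both isotype samples, whereas the sums of 4 NK cell markers (12.1 to 12.3 in isotype, 7.67 to 14.3 in anti-PD1) and of 3 erythroid markers (24.2 to 32.5 and 9.10 to 24.9) overlapped, and those of 4 platelet markers were 0 in isotype and 0.958 to 2.04 in anti-PD1. Genes within a list did not all follow its sum. Of the 8 T cell markers, 2 were fitted higher and 6 lower under anti-PD1 against isotype. The 1 that passed, *Cd5*, was higher, at 42.4 and 41.5 CPM in isotype and 71.4 and 96.9 in anti-PD1. Of the 9 tested macrophage or monocyte markers, 2 were fitted higher and 7 lower. Most of the 10 adhesion genes are also made by the other cell types of these lists. The part of such cells, and of the lower T cell marker sums, in the results below was not tested. In these bulk samples, fewer cells of a type and less RNA per cell cannot be told apart.

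*Itgal*, the αL chain of LFA-1, had the highest level of the 10 genes, with a mean of 217 CPM over all samples and a range of 195 to 257. *Itgb1*, the shared β1 chain, followed at 87.1 CPM, then *Itgb2*, the β2 chain, at 66.2 and *Cd69* at 66.2. *Selplg*, which encodes the selectin ligand PSGL-1, stood at 51.3 CPM, *Itgb7*, the β7 chain, at 39.6, and *Itga4* at 39.0. *Cd44*, the hyaluronan receptor that marks antigen-experienced T cells, had a mean of 23.3 CPM, *Itgav* 13.9, and *Icam1* 13.5. Of the 9 neighbouring pairs in this order, the ranges over samples were apart only for *Itgal* with *Itgb1* and for *Cd44* with *Itgav*. The lowest gene in any sample was *Itgav* with 16 reads, which is above the floor of 3 counts. Replicates of a group differed by a median of 0.22 on the log2 scale over the 30 pairs of gene and group. The widest gap was in *Cd69* under anti-Lag3, 2.03 times, followed by *Itgb7* in isotype, 1.84 times, and *Cd44* under anti-PD1, 1.58 times.

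**Figure D1:**
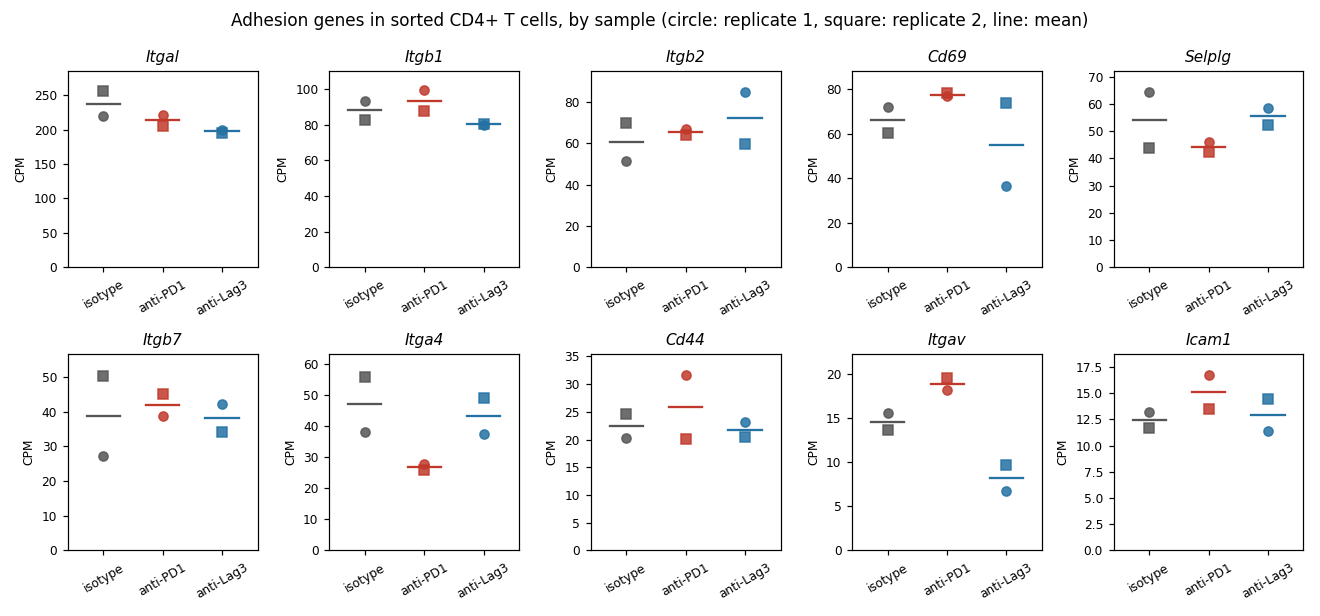
Level of each of the 10 adhesion genes in CPM (vertical axes from 0) in the 6 samples, with circles for replicate 1, squares for replicate 2, and lines at group means. Both anti-PD1 samples lay below the other 4 for *Itga4* (25.8 and 27.8 CPM), and both anti-Lag3 samples lay below the other 4 for *Itgav* (6.75 and 9.66 CPM).

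The first question was whether blocking PD1 changed these genes in the cells sorted as responding. By edgeR with the Benjamini-Hochberg adjustment, 0 of the 10 genes passed an adjusted p of 0.05 between anti-PD1 and isotype, where 107 of all 11877 genes did (0.901%, of which 0.631% higher and 0.269% lower). By unadjusted p under 0.05, 1 did, *Itga4*, against 8.12% of all genes. DESeq2 and limma-voom also called 0, each with 1 at that unadjusted threshold. The fitted median over the 10 genes was 0.10 on the log2 scale and that over all genes 0.00, with 7 genes fitted higher and 3 lower.

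*Itga4* (ENSMUSG00000027009, chr2:79255426-79333123 in GRCm38, forward strand), which gives VLA-4 with β1 and LPAM-1 with β7, was read at 38.2 and 55.9 CPM under isotype, 27.8 and 25.8 under anti-PD1, and 37.5 and 49.0 under anti-Lag3. The anti-PD1 samples were both the lowest, with no overlap with either other group. The log2 fold change of anti-PD1 against isotype was -0.82 (SE 0.25, 95% interval -1.32 to -0.33, edgeR adjusted p = 0.114). Against anti-Lag3 the log2 fold change of anti-PD1 was -0.70 (SE 0.25, edgeR adjusted p = 0.442). The call depended on single libraries, as *Itga4* passed without isotype replicate 1 (log2 fold change -1.06, adjusted p = 0.0316) and narrowly without anti-Lag3 replicate 1 (-0.82, adjusted p = 0.0492). With the other 4 samples left out in turn it did not pass. In the deposited rlog values, which shrink low counts toward the mean, its anti-PD1 mean minus its isotype mean was -0.23 on the log2 scale. Exons of *Cerkl* overlap *Itga4* on the other strand, and *Cerkl* had 1 to 11 reads in a sample.

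The β chains that pair with α4 were measured in the same samples. *Itgb1* (ENSMUSG00000025809, chr8:128685654-128733200, forward strand) was at 93.3 and 82.5 CPM in isotype, 99.2 and 87.5 in anti-PD1, and 79.7 and 80.6 in anti-Lag3. *Itgb7* (ENSMUSG00000001281, chr15:102215995-102231944, reverse strand) was at 27.3 and 50.3, 38.8 and 45.0, and 42.2 and 34.2 CPM in that order. The anti-PD1 samples overlapped isotype for both genes, with log2 fold changes of 0.09 (95% interval -0.24 to 0.42) for *Itgb1* and 0.10 (-0.40 to 0.60) for *Itgb7*. The value fitted for *Itga4* lay outside both intervals, but the interval of *Itga4* itself overlapped that of *Itgb7*. These intervals do not compare *Itga4* with its β chains directly.

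Within a sample, the ratio of *Itga4* reads to *Itgb1* reads was 0.409 and 0.678 in isotype, 0.280 and 0.294 in anti-PD1, and 0.471 and 0.608 in anti-Lag3. The ratio to *Itgb7* was 1.40 and 1.11 in isotype, 0.716 and 0.573 in anti-PD1, and 0.890 and 1.43 in anti-Lag3. Both ratios were lowest in the anti-PD1 samples, without overlap with either other group. Most of the 18 comparisons of the 6 ratios examined also had no overlap. Both ratios use the same *Itga4* reads, so they are not independent of each other or of the *Itga4* level above. The mean log2 ratio fell by 0.87 for *Itgb1* and by 0.96 for *Itgb7* between isotype and anti-PD1. An exact two-sided permutation test with 2 samples against 2 cannot give a p below 0.33, which both differences had (0.545 after Benjamini-Hochberg adjustment over 18 comparisons of 6 ratios), so this test could not reach significance for the ratios.

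**Figure D2:**
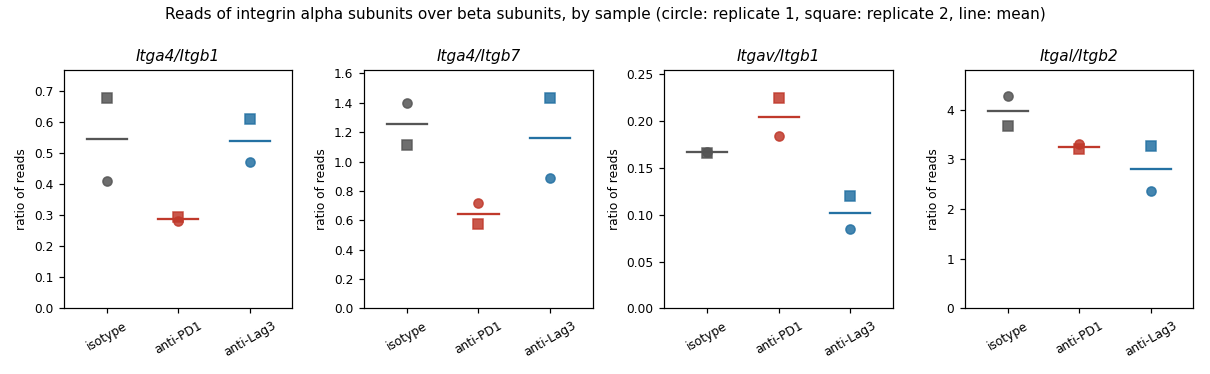
Ratio of the reads of an integrin α chain to those of a β chain it pairs with, in each of the 6 samples (vertical axes from 0, circles replicate 1, squares replicate 2, lines group means). The *Itga4* ratios of both anti-PD1 samples lay under those of the other 4, and the *Itgav*/*Itgb1* ratios of both anti-Lag3 samples, 0.0847 and 0.120, lay under those of the other 4.

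For the chains of LFA-1, no difference passed, and *Itgal* had the smallest standard errors of the 10 genes. *Itgal* (ENSMUSG00000030830, chr7:127296260-127335138, forward strand) was at 220 and 257 CPM in isotype, 222 and 206 in anti-PD1, and 200 and 195 in anti-Lag3. Anti-PD1 overlapped isotype, and its log2 fold change was -0.16 (95% interval -0.41 to 0.09). *Itgb2* (ENSMUSG00000000290, chr10:77530252-77565708, forward strand) was at 51.4 and 70.0 CPM in isotype, 67.1 and 64.2 in anti-PD1, and 84.8 and 59.8 in anti-Lag3, with both treated groups overlapping isotype. Reads of *Itgal* were 4.28 and 3.67 times those of *Itgb2* in isotype, 3.31 and 3.21 times in anti-PD1, and 2.36 and 3.27 times in anti-Lag3. The isotype ratios were the highest, and the exact permutation p of 0.33 was again the smallest possible. *Icam1* (ENSMUSG00000037405, chr9:21015985-21028817, forward strand), the LFA-1 ligand that activated T cells also carry, was at 13.2 and 11.7 CPM in isotype, 16.8 and 13.5 in anti-PD1, and 11.4 and 14.5 in anti-Lag3. Its log2 fold change under anti-PD1 was 0.28 with a wide 95% interval of -0.47 to 1.03.

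The molecules that mark activation and homing showed no difference past the threshold. *Cd44* (ENSMUSG00000005087, chr2:102811141-102901665, reverse strand) was at 20.3 and 24.6 CPM in isotype, 31.6 and 20.04 in anti-PD1, and 23.2 and 20.4 in anti-Lag3, so that all groups overlapped. Its splice variants, which differ in their inner exons, cannot be told apart from reads at the 3′ end. *Selplg* (ENSMUSG00000048163, chr5:113818536-113832644, reverse strand) was at 64.6 and 43.9 CPM in isotype, 46.0 and 42.5 in anti-PD1, and 58.6 and 52.4 in anti-Lag3. The log2 fold change of anti-PD1 against isotype was -0.29 (95% interval -0.72 to 0.15), and only the anti-PD1 and anti-Lag3 samples lay apart.

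*Cd69* (ENSMUSG00000030156, chr6:129267325-129275436, reverse strand), an early gene of T cell receptor signaling, was at 72.1 and 60.4 CPM in isotype, 76.7 and 78.1 in anti-PD1, and 36.3 and 73.5 in anti-Lag3. The anti-PD1 samples were the highest, and 1 anti-Lag3 sample was well below all others. Against isotype the log2 fold change of anti-PD1 was 0.23 (95% interval -0.20 to 0.65), and against anti-Lag3 it was 0.48 (0.06 to 0.91, edgeR adjusted p = 0.702). The comparison with anti-Lag3 rested on that low library, since without anti-Lag3 replicate 2 the log2 fold change was 1.08 (adjusted p = 0.0139) and without anti-Lag3 replicate 1 it was 0.08.

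In all, the samples of anti-PD1 and isotype did not overlap for 4 of the 10 genes, *Itgav*, *Icam1*, and *Cd69* with anti-PD1 higher and *Itga4* with anti-PD1 lower, a share to be read against 37.4% of all genes tested. For the 9 genes other than *Itga4*, the 95% intervals of the fold of anti-PD1 over isotype ran from 0.608 at the lowest (*Selplg*) to 2.14 at the highest (*Itgav*). They were narrowest for *Itgal*, from 0.755 to 1.06.

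**Figure D3:**
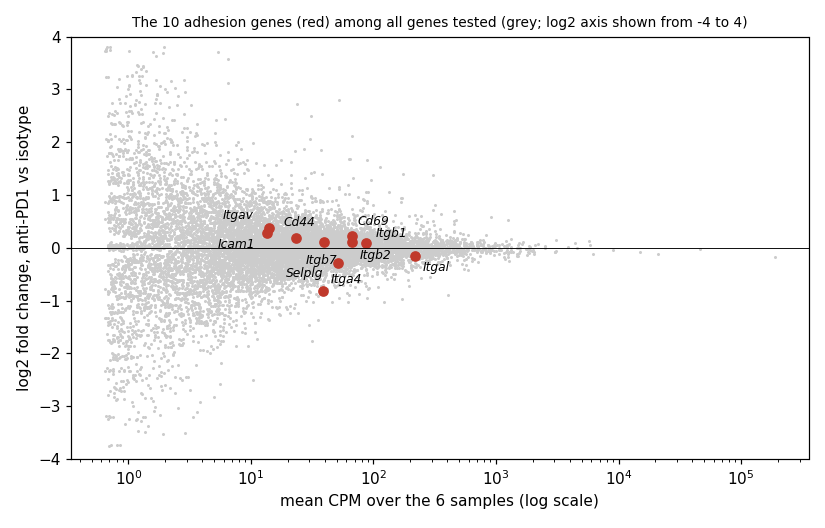
Log2 fold change of anti-PD1 against isotype (vertical axis) and mean CPM over the 6 samples (horizontal axis, log scale) for the 11877 genes tested (grey) and the 10 adhesion genes (red). The vertical axis is cut, so the most extreme grey points are not shown (range over all genes -5.92 to 7.16). *Itga4*, at -0.82, lay farthest from 0 among the 10, and the other 9 lay between -0.29 and 0.38.

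The second question was whether blocking Lag3 did the same. Between anti-Lag3 and isotype, 0 of the 10 genes passed by edgeR, DESeq2, or limma-voom, and 5 of all genes tested did by edgeR (0.0421%, of which 0.0253% higher and 0.0168% lower). At an unadjusted p under 0.05, edgeR gave 2, *Itgal* and *Itgav*, both lower, against 5.96% of all genes, DESeq2 gave 0, and limma-voom gave 1. The fitted median of the 10 genes was -0.08 on the log2 scale beside 0.00 over all genes. Both comparisons share the isotype samples.

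*Itgav* (ENSMUSG00000027087, chr2:83724397-83806916, forward strand), whose αv chain joins β1 and other β chains to bind matrix proteins, was at 15.6 and 13.7 CPM in isotype, 18.2 and 19.6 in anti-PD1, and 6.75 and 9.66 in anti-Lag3. These were 33 and 34, 38 and 48, and 16 and 26 reads. The 3 groups did not overlap, with anti-Lag3 lowest and anti-PD1 highest. The log2 fold change of anti-Lag3 against isotype was -0.82 (SE 0.39, 95% interval -1.60 to -0.04, edgeR adjusted p = 0.810), which did not pass.

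*Itgal* was 0.829 times the isotype level under anti-Lag3 (95% interval 0.699 to 0.985, edgeR adjusted p = 0.800), and both anti-Lag3 samples lay below both isotype samples. With *Itgav* and *Itgb1*, *Itgal* was 1 of 3 genes whose anti-Lag3 and isotype samples did not overlap, all 3 with anti-Lag3 lower, beside 34.6% of all genes in either direction. The other 7 genes overlapped between these groups, and for *Itga4* the log2 fold change was -0.12 (95% interval -0.59 to 0.34).

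The third question was how the 2 antibodies differed from each other. Between anti-PD1 and anti-Lag3, 0 of the 10 genes passed by edgeR, DESeq2, or limma-voom, where 36 of all genes did by edgeR (0.303%, of which 0.244% higher and 0.0589% lower). At an unadjusted p under 0.05, edgeR gave 3 (*Itga4* lower, *Itgav* and *Cd69* higher under anti-PD1), DESeq2 2, and limma-voom 3, against 6.53% of all genes by edgeR. The largest difference was in *Itgav*, 2.29 times as high under anti-PD1 (95% interval 1.35 to 3.87), with an edgeR adjusted p of 0.311. Samples of the 2 antibodies did not overlap for 6 of the 10 genes, 4 higher and 2 lower under anti-PD1, beside 35.9% of all genes. The 6 were *Itgal*, *Itgav*, *Itgb1*, and *Cd69* (higher), and *Itga4* and *Selplg* (lower). A joint test of any difference among the 3 groups called 0 of the 10 genes and 0.859% of all genes by edgeR. At an unadjusted p under 0.05, that test gave *Itga4* and *Itgav* (2 of 10, beside 7.57% of all genes), DESeq2 gave 1, and limma-voom gave 3.

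**Figure D4:**
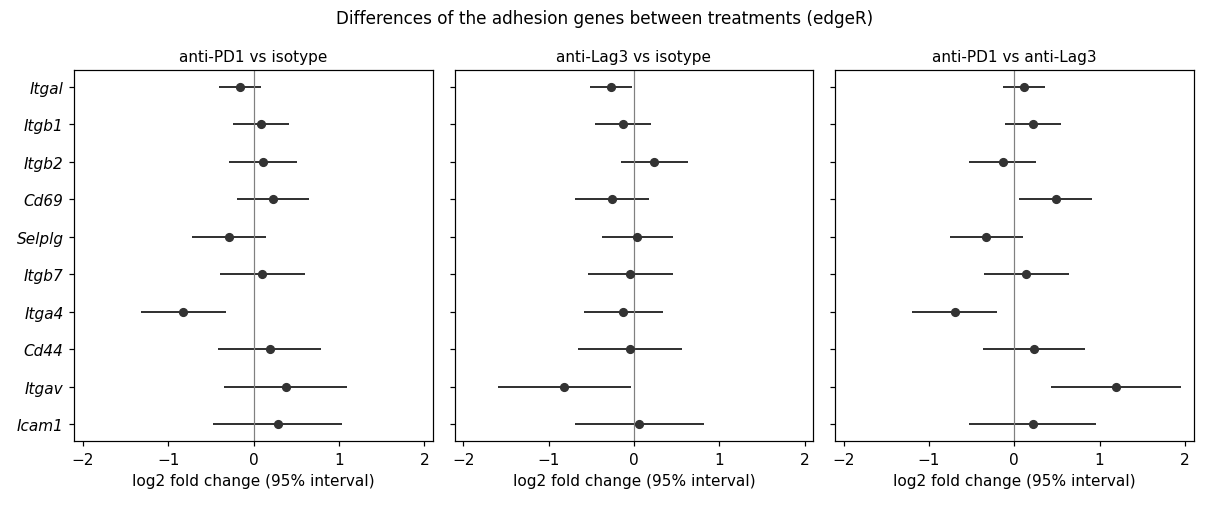
Log2 fold change (points, horizontal axis) and its 95% interval (bars) from edgeR for the 10 adhesion genes in the 3 comparisons, which share samples. Intervals apart from 0 were those of *Itga4* under anti-PD1 against isotype (-1.32 to -0.33), of *Itgal* and *Itgav* under anti-Lag3 against isotype, and of *Itga4*, *Itgav*, and *Cd69* between the antibodies, none of which passed after adjustment over all genes.

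The pathway around these 10 genes was examined in 5 further lists of 151 genes, of which 112 could be tested. In the comparison of anti-PD1 with isotype, 5 passed by edgeR (4.46%, beside 0.901% of all genes), 2 higher and 3 lower, and 25 (beside 8.12% of all genes) had an unadjusted p under 0.05. None passed between anti-Lag3 and isotype by edgeR, DESeq2, or limma-voom, with 12, 6, and 13 at an unadjusted p under 0.05 (beside 5.96% of all genes by edgeR), and 1 passed between anti-PD1 and anti-Lag3 (0.893%, beside 0.303% of all genes). The lists were drawn up with results of these data known, so the counts are descriptions.

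**Figure D5:**
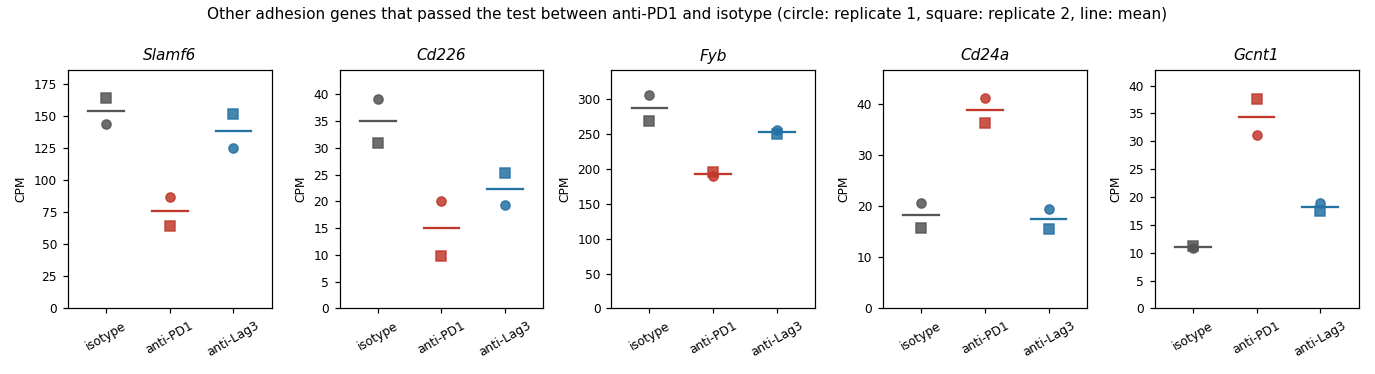
Level in CPM (vertical axes from 0) of the 5 further adhesion genes that passed the test between anti-PD1 and isotype, by sample, with circles for replicate 1, squares for replicate 2, and lines at group means. Both anti-PD1 samples lay below both isotype samples for *Slamf6*, *Cd226*, and *Fyb* and above them for *Cd24a* and *Gcnt1*.

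Of 26 tested adhesion receptors and ligands, 2 fell and 1 rose under anti-PD1 against isotype, beside 0.269% of all genes lower and 0.631% higher. *Slamf6*, a self-binding receptor of the SLAM family on T and B cells, was at 144 and 164 CPM in isotype, 86.7 and 64.6 in anti-PD1, and 125 and 152 in anti-Lag3. Both anti-PD1 samples were below the other 4, and the log2 fold change against isotype was -1.03 (SE 0.16, edgeR adjusted p = 5.5e-05). *Slamf6* was also the gene that passed against anti-Lag3, with a log2 fold change of -0.88 (edgeR adjusted p = 0.00269).

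*Cd226*, which encodes DNAM-1, an activating receptor for CD155 that works with LFA-1, was at 39.1 and 31.0 CPM in isotype, 20.1 and 9.81 in anti-PD1, and 19.4 and 25.3 in anti-Lag3. Its log2 fold change under anti-PD1 was -1.24 (SE 0.31, edgeR adjusted p = 0.0366). *Cd24a*, a small lipid-anchored glycoprotein that B cells also carry, was at 20.7 and 15.7 CPM in isotype, 41.2 and 36.4 in anti-PD1, and 19.4 and 15.6 in anti-Lag3, a log2 fold change of 1.09 against isotype (SE 0.28, edgeR adjusted p = 0.0482). *Cd24a* and *Cd226* did not pass by DESeq2, with edgeR's newer method, or with the filterByExpr filter, and *Cd24a* also did not with DESeq2's size factors, upper quartile scaling, or *Gm42418* and the mitochondrial ribosomal RNA left out. The highest levels of this list were those of *Cd2* at 270 to 393 CPM, *Spn*, which encodes CD43, at 166 to 261, and *Cd47* at 167 to 195. None of these 3 passed in any comparison.

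The 49 tested genes of integrin activation carry signals from the T cell receptor to the integrin tail and on to actin. Under anti-PD1 against isotype, 1 of them fell, beside 0.269% of all genes called lower. This was *Fyb*, encoding the adaptor ADAP that links the T cell receptor to LFA-1 activation, at 305 and 268 CPM in isotype, 190 and 195 in anti-PD1, and 256 and 250 in anti-Lag3. Its log2 fold change was -0.57 (SE 0.12, edgeR adjusted p = 0.00417), and both anti-PD1 samples were below the other 4. The highest levels were those of the GTPases *Rac2* (353 to 431 CPM) and *Cdc42* (302 to 366) and of the scaffold *Iqgap1* (284 to 355), and none of the 3 passed.

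Of 15 tested enzymes that build selectin ligands, 1 rose under anti-PD1 against isotype, beside 0.631% of all genes called higher. *Gcnt1*, the core 2 branching enzyme that makes PSGL-1 able to bind selectins, was at 10.8 and 11.3 CPM in isotype, 31.1 and 37.6 in anti-PD1, and 19.0 and 17.5 in anti-Lag3. The 3 groups did not overlap, and *Gcnt1* was 3.10 times as high under anti-PD1 as under isotype (95% interval 2.00 to 4.82, edgeR adjusted p = 0.00154). Its carrier protein gene *Selplg* stood at 0.820 times isotype (0.608 to 1.11) and did not pass. *Galnt1* (74.7 to 97.1 CPM), *B4galt5* (61.3 to 78.7), and *Chst2* (43.8 to 60.5) had the highest levels of this list and did not pass.

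Counts of these further genes rested on single libraries. Without anti-PD1 replicate 2, 1 of them passed between anti-PD1 and isotype, *Slamf6*, and 0 between the antibodies (10 at an unadjusted p under 0.05), while the calls over all genes went from 107 to 55 and from 36 to 7. Without isotype replicate 1 the 3 that passed were *Cd2*, *Gcnt1*, and *Slamf6*. Without isotype replicate 2 the 3 were *Fyb*, *Gcnt1*, and *Slamf6*, and without anti-PD1 replicate 1 they were *Cd226*, *Gcnt1*, and *Slamf6*. Between the antibodies, *Cd24a* passed beside *Slamf6* without isotype replicate 1 or without isotype replicate 2.

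Of 20 other integrin subunits, 6 had no read in any sample, 6 had 1 to 9 reads over all samples, and 8 could be tested, of which 0 passed by edgeR, DESeq2, or limma-voom in any comparison. At an unadjusted p under 0.05, edgeR gave 1 for anti-PD1 against isotype, 1 for anti-Lag3 against isotype, and 0 between the antibodies. The shares of all genes were 8.12%, 5.96%, and 6.53% in that order. *Itga6*, the α6 chain that pairs with β1 to bind laminin, was the highest of them at 29.5 to 42.3 CPM, with a log2 fold change of -0.12 under anti-PD1 (95% interval -0.61 to 0.37). *Itgb3* (0.422 to 7.25 CPM) and *Itgb8* (0 to 7.19) were next. Of 14 tested partners of CD44 and CD69, none passed by edgeR. At an unadjusted p under 0.05 there were 2, 1, and 3 in the 3 comparisons, beside the same shares of all genes. Their highest levels were those of the actin-membrane linkers *Msn* (381 to 444 CPM) and *Rdx* (329 to 415) and of the myosin light chain gene *Myl12a* (326 to 377).

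For the 3 genes with the smallest p in the joint test, the genes with the most similar pattern were found by Pearson's r of log2 CPM over the 6 samples, among 5425 genes with a mean of at least 20 CPM. For *Itga4* they were *Dgkz* (r = 0.98), *Itih5* (0.98), and *Csk* (0.98). For *Itgav* they were *Ino80c* (0.995), *Ampd2* (0.99), and *Mfhas1* (0.99), and for *Cd69*, *Mcph1* (0.99), *Thrap3* (0.99), and *Tti1* (0.98). Choosing the highest of so many values over 6 samples gives high values of r in any case, so they are a description only.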

How the data were processed

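RNA of sorted *Nr4a3*-Blue+Red+ CD4+ T cells (25 ng per the labels) was made into QuantSeq 3′ libraries. The authors trimmed reads, aligned them with STAR v2.5.2a to GRCm38 (mm10), counted them per Ensembl gene with HTSeq-count, and deposited raw counts. The annotation release and the strand setting of the counting are not given in the sources used here. The authors also deposited rlog values (log2) from DESeq2 for the same 11877 genes. PCR copies were not separated, so reads are not independent molecules.

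Groups and replicate numbers came from sample titles. From the counts, genes past a minimum of 10 reads summed over the samples were fitted in all 6 samples together with edgeR 4.0.16 in R 4.3.3 (TMM, glmQLFit, glmQLFTest, Benjamini-Hochberg threshold 0.05). For edgeR, each SE was back-calculated from the log2 fold change and its test statistic. Intervals are 95% and use the median over genes of the moderated degrees of freedom. An interval apart from 0 therefore closely follows an unadjusted p under 0.05 and is no separate evidence. The replicates were separate mice by the study's methods, 2 a group. Replicates differed by more than counting noise (chi-square per degree of freedom 3.23, 2.65, and 3.29 in isotype, anti-PD1, and anti-Lag3). Alternatives used DESeq2 1.42.0, limma-voom (limma 3.58.1), a fit of each comparison alone, edgeR's newer method (legacy = FALSE), other scalings and filters, a threshold of 0.1, a replicate block, and each sample left out. Scripts were tested on simulated counts. Names and positions came from GENCODE vM21, which matched 47224 of 47643 identifiers, and promoters from RefSeq (GRCm38.p6).

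The 10 genes and all lists were chosen with earlier results of these data known. Named genes were all 10, every further listed gene that passed in any comparison, and the 3 highest by mean CPM in each list. Of the 151 further listed genes, 146 were found by symbol. Figures were drawn with matplotlib 3.10.9.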

Additional observations from a re-analysis of the deposited data

How the results depend on the processing

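With a sample left out, the remaining sample of its group was assumed to vary like the others. Leaving out each sample in turn gave 0 to 1 of the 10 genes called between anti-PD1 and isotype, 0 to 1 between anti-PD1 and anti-Lag3, and 0 to 1 among the 3 groups, and for the further adhesion genes 1 to 5 between anti-PD1 and isotype and 0 to 2 between anti-PD1 and anti-Lag3. All other alternatives run called 0 of the 10 genes. The further genes called between anti-PD1 and isotype were 3 by DESeq2, 3 by edgeR with legacy = FALSE, and 3 with filterByExpr, beside 5. Between anti-PD1 and anti-Lag3 they were 3 in the fit of that comparison alone, 3 with a filter of 1 read, and 2 at a threshold of 0.1, beside 1. Their number was 2 with the replicate number as a block, which changed no other of these counts, while all genes called between anti-PD1 and isotype were 144 with the block beside 107. Same-numbered samples did not deviate together (correlations 0.05, 0.05, and -0.05 over 5433 genes), and the labels do not say that a number marks a batch. Dropping *Gm42418* and mitochondrial ribosomal RNA was chosen after the data were seen and called 0 of the 10 genes. It left 4 of the 5 further genes, without *Cd24a*, as did DESeq2's size factors and upper quartile scaling. Leaving out a sample turned the sign of some differences that had not passed. Between anti-PD1 and isotype, the log2 fold change ran from -0.16 to 0.49 (*Cd44*), -0.0045 to 0.18 (*Itgb1*), -0.092 to 0.35 (*Itgb2*), -0.26 to 0.62 (*Itgb7*), and -0.55 to 0.014 (*Selplg*). Between anti-Lag3 and isotype, the log2 fold change ran from -0.17 to 0.10 (*Cd44*), -0.86 to 0.15 (*Cd69*), -0.12 to 0.22 (*Icam1*), -0.36 to 0.19 (*Itga4*), -0.033 to 0.49 (*Itgb2*), -0.40 to 0.48 (*Itgb7*), and -0.22 to 0.34 (*Selplg*). Between anti-PD1 and anti-Lag3, the log2 fold change ran from -0.12 to 0.53 (*Cd44*), -0.38 to 0.14 (*Itgb2*), and -0.014 to 0.30 (*Itgb7*). The cause was not tested. Other scalings turned no direction of the 10 genes. With them, the samples of anti-PD1 and isotype did not overlap for 4 to 5 of the 10 genes, beside 4. At 16 to 48 reads a sample, *Itgav* was among the least precise.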
